A study of Arabidopsis thaliana with 2 samples.

Results

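The first 10 Mb of chromosome 3 of Arabidopsis thaliana held 7106 of the 40612 positions in a deposited list of single-nucleotide polymorphisms (SNPs), which is 17.5% of the list and 71.5% of the SNPs of that chromosome. The members are all listed SNPs on chromosome 3 at positions 1 to 10000000 of the TAIR10 build. The stretch was chosen by its count of listed SNPs per Mb in this same list, so its density is a description and no test was made of it. The last listed SNP inside it was at position 9997066 and the first beyond it at 10016967. Inside the boundary, the 500 kb from 9000001 to 9500000 held 627 SNPs, and the last 500 kb, from 9500001, held 323. The first 500 kb outside it, to 10500000, held 86. The list was therefore already thinning before the boundary was reached.

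The study sequenced genomic DNA of seedlings with the potent phenotype, and of seedlings without it, with 1 sample of each. Both kinds came from the last of several successive crosses of potent, a dominant mutant, with the ecotype Ler (Landsberg erecta). The mutation came from a line in the Col-0 background that carried DR5::Luciferase, pWOX5::ER-YFP and pSCR::ER-GFP. Its seeds were treated with 50 mM ethyl methanesulfonate (EMS) for 12 hours, screened for impaired lateral root formation, and the mutant was kept heterozygous through crosses to the parental line before those to Ler. Seedlings of both samples were grown alike, descend from the same EMS-treated line and from Ler, and no label states their age. One deposited list was analysed, described by its title as homozygous and marked MT. No column names a sample and the abbreviation is not defined, so nothing could be set between the phenotypes and no spread between replicates could be estimated. Each entry is a chromosome and a position, without allele, read depth or quality.

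Col-0 and Ler are inbred ecotypes whose genomes differ at many single bases, and the Arabidopsis reference sequence is that of Col-0. Plants that inherit both copies of a segment from Ler are homozygous for the Ler base at those sites, whereas a segment with at least 1 copy from Col-0 is not. EMS adds single-base changes, mostly at G and C. Because the list gives no allele, a natural difference between the ecotypes and an EMS change cannot be told apart, and where no SNP is listed the plants may carry the reference base, be heterozygous, or have had too few reads for a call. Genome sequence was not used here.

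The region averaged 711 listed SNPs per Mb (95% Poisson interval 694 to 727). Rates elsewhere were 210 per Mb (203 to 218) over the rest of chromosome 3 and 307 per Mb (304 to 311) over the whole list outside the region. Of the other dense stretches, the first 10 Mb of chromosome 5 held 482 per Mb (468 to 495) and the first 6 Mb of chromosome 4 held 828 per Mb (805 to 852). Density was higher in the second 5 Mb of the region, where 4181 SNPs gave 836 per Mb (811 to 862), than in the first 5 Mb, where 2925 SNPs gave 585 per Mb (564 to 607). These intervals cover counting error only. Neighbouring SNPs are inherited together, so a count of SNPs is not a count of independent events.

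By consecutive 1 Mb windows the counts were 403, 716, 613, 638, 555, 686, 656, 818, 1071 and 950 SNPs. The first was the lowest and the ninth, from 8000001 to 9000000, the highest of these 10. The counts did not climb smoothly: the window from 4000001 to 5000000 held fewer SNPs than any of the 3 before it, and the last fewer than the ninth.

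At 100 kb the profile was uneven. The 100 windows held between 1 and 190 SNPs, with a median of 67.5 and quartiles of 41.75 and 95. Their variance was 21.1 times their mean, where counts scattered evenly at random would have a ratio near 1. Neighbouring windows resembled each other only in part: the count of a window correlated with that of the next at Pearson r = 0.42 over 99 pairs, a description of windows on 1 chromosome. Of the 100 windows, 22 held more than 1.5 times the median and 16 held under 0.5 times the median.

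**Figure D1:**
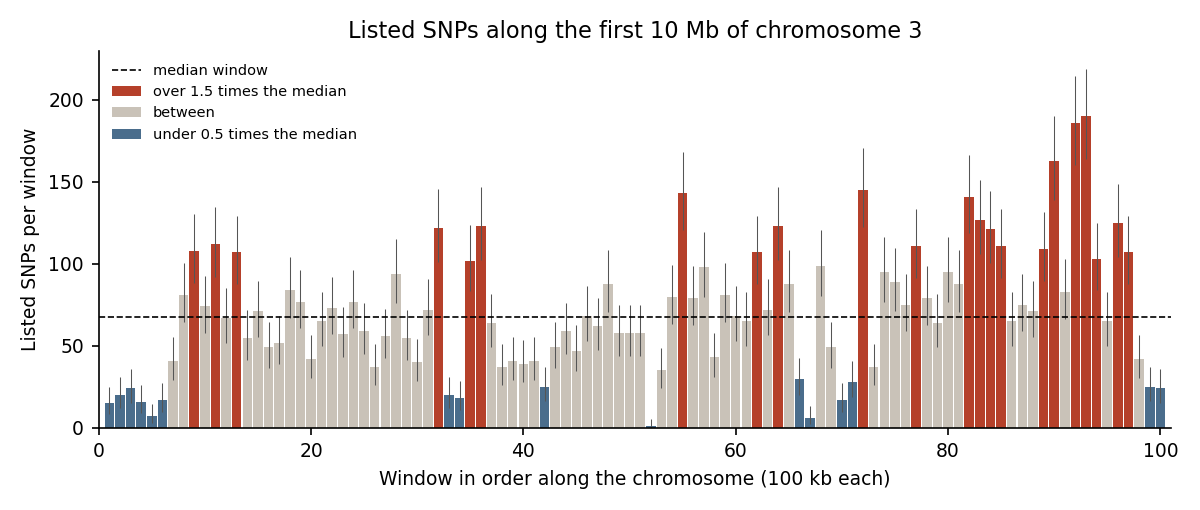
Listed SNPs in 100 consecutive windows of 100 kb along the first 10 Mb of chromosome 3, in order, with exact 95% Poisson intervals as vertical lines and the median of 67.5 as a dashed line. Colours mark windows over 1.5 times and under 0.5 times the median; the 6 windows at the left end hold 7 to 24 SNPs, window 52 holds 1, and windows 92 and 93 hold 186 and 190.

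The densest window, from 9200001 to 9300000, held 190 SNPs (95% Poisson interval 164 to 219). The one before it, from 9100001 to 9200000, held 186 (160 to 215), and their intervals overlapped almost wholly. The next in rank were the windows from 8900001 to 9000000 with 163 SNPs, from 7100001 to 7200000 with 145, and from 5400001 to 5500000 with 143. Together these 5 windows held 827 SNPs, or 11.6% of the region's SNPs. The shortest stretch that held 100 consecutive SNPs was 37.3 kb long, from 9200007 to 9237267, inside the densest window. A stretch of 100 SNPs measured 120 kb in the median. Dense windows formed runs toward the far end, where 4 in a row from 8100001 to 8500000 held 500 SNPs and 3 in a row from 9100001 to 9400000 held 479.

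The least dense window, from 5100001 to 5200000, held 1 SNP (95% Poisson interval 0.025 to 5.57), although it held 32 protein-coding genes, against a median of 29 per window. The window from 6600001 to 6700000 held 6 SNPs, that from 400001 to 500000 held 7, that from 1 to 100000 held 15 and that from 300001 to 400000 held 16. The 5 together held 45 SNPs, or 0.633% of the total. The longest run of sparse windows was at the very start of the chromosome, where 6 windows from 1 to 600000 held 99 SNPs, or 165 per Mb. The longest stretch of 100 consecutive SNPs, 597 kb from 4074 to 601413, covered this same end.

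Changes between neighbouring windows were abrupt. The window from 7000001 to 7100000 held 28 SNPs, the next held 145 and the one after that 37, which made these the largest steps in the region. Another lay between the window from 3100001 to 3200000, with 122 SNPs, and the next, with 20. The sparse pair from 3200001 to 3400000 held 38 SNPs, and it was followed by a pair from 3400001 to 3600000 with 225. Sparse stretches thus lay directly against dense ones inside the region, as well as at its ends.

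The scale of counting changed how uneven the region looked. Of 10000 windows of 1 kb, 6226 (62.3%) held no listed SNP, and the fullest, from 6150001 to 6151000, held 15. Of 1000 windows of 10 kb, 86 (8.6%) were empty, the median held 6 and the fullest held 43 (95% Poisson interval 31.1 to 57.9). That fullest window, from 7120001 to 7130000, had every one of its 43 SNPs inside protein-coding genes, and it overlapped RTL2, AT3G20430 and EMB2729. The next, from 5430001 to 5440000, held 35, also all inside protein-coding genes. The third, from 7930001 to 7940000, held 34 SNPs with 8 inside genes. The share of bases in genes was not computed for these 10 kb windows, so their counts inside genes cannot be set against it. The variance-to-mean ratio rose with window size, with values of 2.23 at 1 kb, 5.73 at 10 kb, 21.1 at 100 kb and 52.5 at 1 Mb. The coefficient of variation ran the other way, with 177%, 89.8%, 54.5% and 27.2%.

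Gaps gave the other side of this pattern. There were 20 gaps of 20 kb or more between neighbouring SNPs, and they covered 804 kb, or 8.04% of the region. Of these, 3 were of 50 kb or more. Gene-free sequence did not make up these gaps: in the 10 longest, between 56.6% and 83.3% of the bases lay in protein-coding genes, against 68.5% over the region.

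The longest gap measured 102.9 kb, from the SNP at 5079992 to that at 5182864, and held 32 protein-coding genes. The SNP that closed it was followed by another gap of 45.6 kb, with 16 protein-coding genes, ending at 5228489. A single SNP therefore divided this pair of gaps. The 50 kb before the first gap held 34 SNPs and the 50 kb after the second held 32. By definition, a gene that lies wholly inside a gap holds no listed SNP. The first gap held AT3G15120 at 7.87 kb and AT3G15220 at 5.74 kb, its longest genes. It also held CUC1, a NAC-domain transcription factor that sets organ boundaries in the shoot, ERF4, an ethylene-response transcription factor, HPY2, a SUMO ligase of the root meristem, and SPL5, an SBP-domain transcription factor. These 4 were chosen after their positions were seen. From AT3G15090 to NAC3 (AT3G15500), 51 neighbouring protein-coding genes had no listed SNP, the longest such run in the region, with 6 SNPs listed between genes along it.

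The second longest gap, 78.3 kb from 6914607 to 6992880, was likewise followed at once by another, 47.2 kb to 7040114. The first of these held 17 protein-coding genes, of which ATM1, a class VIII myosin, at 8.95 kb and AT3G20010 at 6.01 kb were the longest. The second held 13, the longest being AT3G20150 at 5.84 kb and CYP705A15 at 5.83 kb. That second gap contained a tandem array of cytochrome P450 genes, CYP705A15 and CYP705A18 to CYP705A23. All 7 protein-coding members lay inside the gap, so their 0 listed SNPs follow from its definition. Further along the region CYP705A28, CYP705A30 and CYP705A33 had 0 and CYP705A32 had 2, where 1399 of the region's 2892 protein-coding genes held none. The array was picked after its values were seen. Reads from close copies are hard to place, and whether that bears on these counts was not tested. Taking the neighbourhood as a whole, the 600 kb from 6500001 to 7100000 held 229 SNPs, or 382 per Mb (334 to 434), with SNPs in 56 of its 165 protein-coding genes, where 51.6% of all such genes of the region held one. The limits of this stretch were drawn after its values were seen, and it was not evenly sparse. Its window from 6700001 to 6800000 held 99 SNPs, and that from 6800001 to 6900000 held 49. The 600 kb also contained gaps of 46.1, 36.2 and 34.8 kb, which ranked 5, 9 and 10 in length.

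The third longest gap, 68.2 kb from 3241168 to 3309393, lay between SPD1 and AT3G10585, each of which contains a flanking SNP. It held 21 protein-coding genes in a row, from AT3G10430 to AT3G10580, all without a SNP by the definition of a gap. MTM1 at 5.73 kb and AT3G10440 at 4.03 kb were its longest genes. The neighbouring NAC transcription factor genes NAC050, NAC052 and NAC053, named after their positions were seen, also lay in it. In the 50 kb before this gap 38 SNPs were listed, and in the 50 kb after it 7. The fifth gap, from 6520996 to 6567142, ended in HAF2, and its longest genes were VRN1, a DNA-binding protein of the vernalization response, at 3.93 kb and AT3G19020 at 3.41 kb. The 50 kb before it held 51 SNPs and the 50 kb after it held 4.

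Between the gaps, SNPs stood close together. The median distance to the next SNP was 496 bp (95% interval from order statistics 469 to 521), with quartiles of 102 and 1544 bp. The mean, pulled up by the gaps, was 1406 bp. Of the 7105 distances, 24.9% were at most 100 bp and 65.9% at most 1 kb, against 21.1% and 56.4% in the rest of the list, whose median was 753 bp. The region was chosen for its density, so its distances were bound to be shorter on average than those in the rest of the list. The median was 632.5 bp in the first 5 Mb of the region and 415.5 bp in the second.

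Directly adjacent positions stood out among the short distances. A distance of 1 bp occurred 148 times, or 2.08% of distances (exact binomial interval 1.76 to 2.44%). Each single distance from 2 to 10 bp occurred 38 to 59 times. All 148 joined only 2 positions, and no 3 listed positions stood directly in a row. In the rest of the list the share at 1 bp was 1.65% (1.52 to 1.80%), with 554 adjacent pairs against 153 to 295 for each distance from 2 to 10 bp. The excess at 1 bp was thus present in both, and the difference between the shares was not tested.

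**Figure D2:**
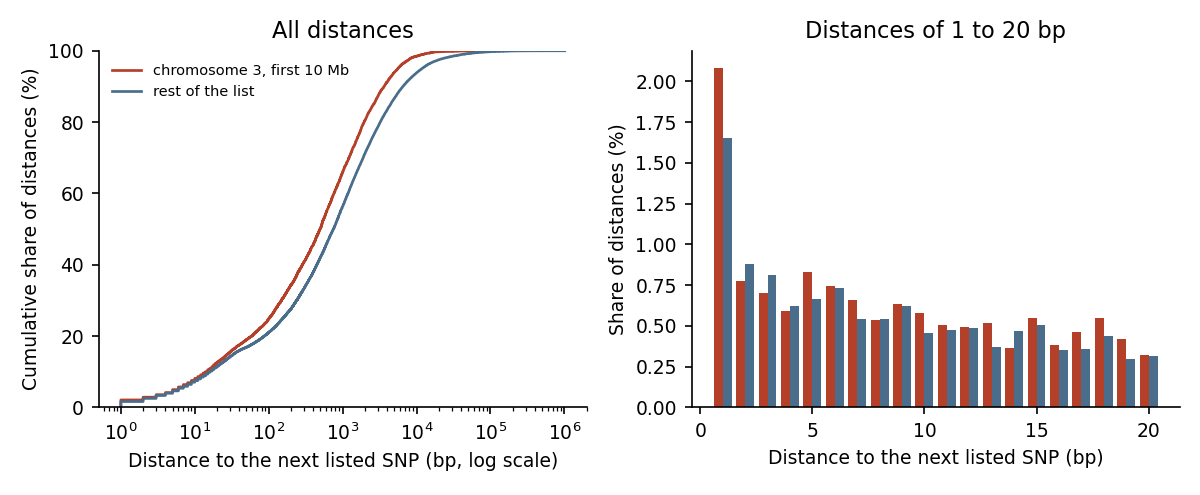
Distances from each listed SNP to the next in the first 10 Mb of chromosome 3 (red) and in the rest of the list (blue), as cumulative shares on a log axis (left) and as shares of all distances for 1 to 20 bp (right). The red curve lies to the left, with a median of 496 bp against 753 bp. The choice of a dense region favours this direction. Both sets have their highest share at 1 bp.

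A clump was defined as a run of SNPs with each at most 100 bp from the next. By that definition 2974 SNPs, or 41.9%, stood in 1208 clumps of 2 or more, and the remaining 4132 stood alone. Pairs made up most clumps, with 859 pairs, 222 runs of 3 and 81 runs of 4. Only 46 clumps held 5 or more SNPs, and these contained 266 SNPs, or 3.74%. The median clump spanned 29 bp. The share of SNPs in clumps was 37.0% in the rest of the list, 37.8% in the first 10 Mb of chromosome 5 and 44.9% in the first 6 Mb of chromosome 4, so it was higher where SNPs were denser. With a fixed limit of 100 bp this share depends on density itself, and the region was chosen for its density. None of these differences was tested.

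The largest clump, 9 SNPs in 330 bp from 8121577 to 8121906, lay between AT3G22910 and AT3G22920, outside any annotated gene. Of the clumps of 8, one spanned 276 bp from 5436241 inside AT3G16010, and the other spanned 351 bp from 9212024 between AT3G25290 and AT3G25400. A further 7 clumps held 7 SNPs. The tightest of these, at 83 bp from 2706998 to 2707080, was in AT3G08890. Another, at 130 bp from 6150230 to 6150359, was in TOC64-III, a gene named for the translocon at the outer membrane of chloroplasts. GLIP4, AT3G24530, AT3G36659 and ENGase85B each contained one, and the last lay between AT3G05858 and AT3G05860. In all, 7 of the 10 largest clumps were inside protein-coding genes, which make up 68.5% of the region's bases. Among SNPs of clumps of 5 or more, 62.0% lay in protein-coding genes (exact binomial interval 55.9 to 67.9%). The share was 53.9% (52.0 to 55.8%) for clumps of 2 to 4 and 57.2% (55.7 to 58.7%) for single SNPs. It therefore did not rise steadily with clump size, and the interval for clumps of 5 or more overlapped that for single SNPs. SNPs of the same clump are not independent, and the 266 SNPs came from 46 clumps, so the intervals for clumps are too narrow. Clumps of 5 or more occurred in every 1 Mb of the region, with 2 to 8 in each.

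Genes held fewer SNPs per base than the sequence around them. Protein-coding genes made up 68.5% of the bases of the region and held 3988 SNPs, or 56.1% of them (exact binomial interval 55.0 to 57.3%). That is 582 per Mb (565 to 601) inside protein-coding genes, against 1020 per Mb (983 to 1058) outside every annotated gene. Density inside was 57.1% of that outside. In the rest of the list it was 63.8%, in the first 10 Mb of chromosome 5 it was 50.1% and in the first 6 Mb of chromosome 4, where 28.7% of bases lie in protein-coding genes, it was 88.0%. These ratios were not tested against each other. Genes of long noncoding RNA held 699 per Mb (567 to 851), transcribed pseudogenes 736 (566 to 942) and other pseudogenes 542 (427 to 678), with wide, overlapping intervals. None of the 42 tRNA genes held a listed SNP, but they cover so little sequence that a rate of up to 1166 per Mb is allowed by a count of 0.

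Density was lower the deeper inside a gene the sequence lay. It was 750 per Mb (701 to 800) within 250 bp of a gene's edge, 649 at 250 to 500 bp, 595 at 500 to 1000 bp, 506 at 1000 to 2000 bp and 421 (382 to 463) beyond 2000 bp. Outside genes it was 1013 per Mb (948 to 1081) within 250 bp of the edge and 1034 (952 to 1122) at 250 to 500 bp. It stayed between 988 and 1008 out to 2000 bp, and was 880 (787 to 980) from 2000 to 5000 bp. Beyond 5000 bp, where little sequence lies, it was 705 (510 to 950), the lowest value outside genes. In the rest of the list the same order held inside genes, with 299 per Mb (289 to 310) next to the edge and 188 (178 to 198) beyond 2000 bp. Sequence far from an edge exists only in long genes. In the region the longest of 5 length classes held 499.6 SNPs per Mb and the shortest 784. Depth and gene length are therefore not separated by these values, which pool genes of all lengths. The annotation gives the outer limits of genes without exons or strand, so untranslated ends, introns and coding sequence are not separated here.

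**Figure D3:**
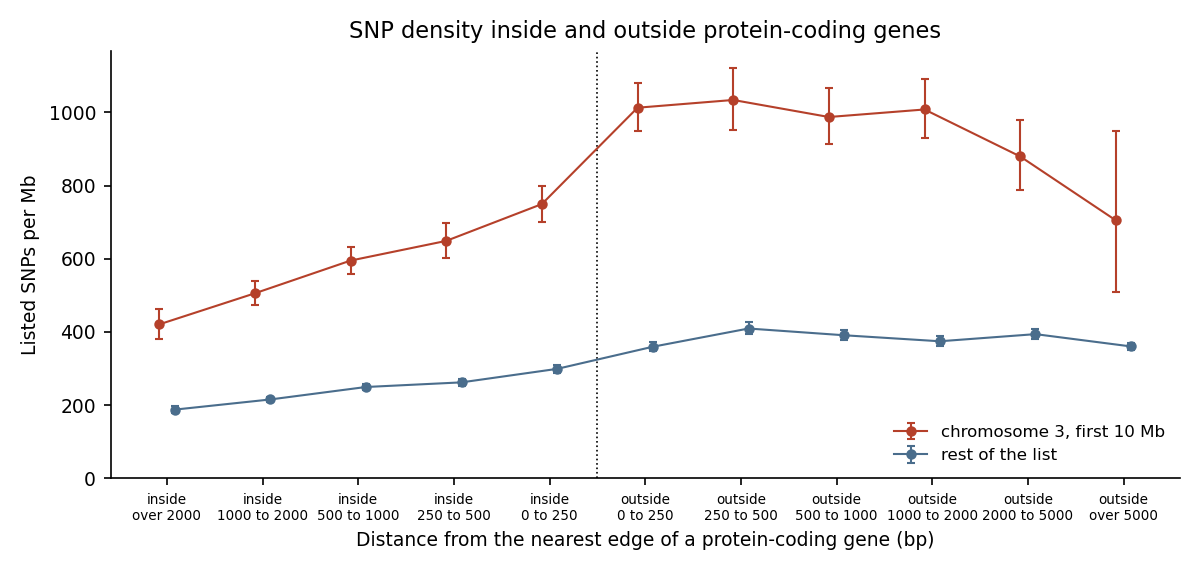
Listed SNPs per Mb by distance from the nearest edge of a protein-coding gene, inside genes (left of the dotted line) and outside them (right), with exact 95% Poisson intervals, for the first 10 Mb of chromosome 3 (red) and the rest of the list (blue). In the red set density is 421 per Mb deepest inside genes, 750 just inside the edge and 1013 just outside it.

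Windows with more of their bases in genes held fewer SNPs. Across the 100 windows the SNP count and the share of bases in protein-coding genes, which ranged from 39.3% to 87.5%, correlated at Pearson r = -0.41 and Spearman rho = -0.43, as a description. In the 25 windows with the most SNPs, 95 to 190, the median share of bases in genes was 63.7%, and in the 25 with the fewest, 1 to 41, it was 77.7%. The number of protein-coding genes per window was nearly unrelated, with r = -0.14, and so was the number of pseudogenes, with r = 0.13. Sparse windows were sparse in both kinds of sequence. In the 25 windows with the fewest SNPs the median was 203 per Mb inside and 426 per Mb outside protein-coding genes, and in the 25 with the most it was 1027 inside and 1360 outside. SNP density inside genes and that outside them correlated at r = 0.64 over the 100 windows, and both measures come from the same window and its unknown read depth. Density was higher outside genes in 85 of 100 windows. It was higher inside genes in 4 of the 5 densest windows, in 7 of the 10 densest and in 8 of the 20 densest. Windows were ranked by a count that includes the SNPs inside genes, so the ranking is not independent of this comparison, which was not tested. In the densest, 9200001 to 9300000, it was 1935 per Mb inside genes, against 1848 outside, and in 9100001 to 9200000 it was 2026 inside, against 1569 outside.

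**Figure D4:**
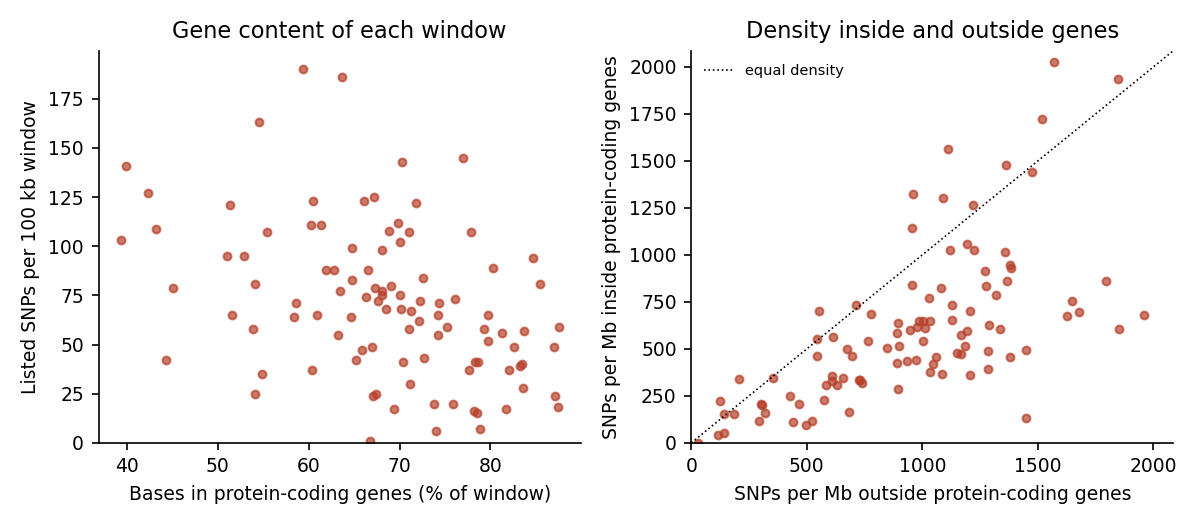
Each point is 1 of 100 windows of 100 kb in the first 10 Mb of chromosome 3: listed SNPs against the share of bases in protein-coding genes (left), and SNPs per Mb inside against outside protein-coding genes (right), with a dotted line of equal density. Windows with a larger share of gene bases hold fewer SNPs (r = -0.41), and 85 of the 100 have a higher density outside genes.

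Of the 2892 protein-coding genes that lie wholly in the region, 1493 held at least 1 listed SNP, or 51.6% (exact binomial interval 49.8 to 53.5%). The corresponding share was 29.2% over the whole list and 26.5% in the rest of it. The choice of a dense region fixes this direction. The median gene held 1 SNP: 1399 genes held none, 654 held 1, 602 held 2 to 4, 187 held 5 to 9 and 50 held 10 or more. These last 50 genes contained 674 SNPs. Longer genes more often held one. When genes were divided by length into 5 classes of equal number, 68.3% of the longest, with a median length of 4.2 kb, held a SNP, against 32.0% of the shortest, with a median of 0.783 kb. Per base the order was opposite, with 499.6 SNPs per Mb in the longest class and 784 in the shortest.

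AT3G10180 held the most SNPs, 35 in 8.69 kb, of which 22 stood in clumps of at most 3. EMB2729, also known as BRANCHING ENZYME 1, held 29 in 7.3 kb, including directly adjacent ones, and fills much of the fullest 10 kb window. TOC64-III held 24 in 4.18 kb, and 22 of them were in clumps. PIP5K9, a phosphatidylinositol phosphate kinase, held 23 in 6.21 kb, and VGT1, a vacuolar glucose transporter, held 19 in 4.4 kb. AT3G08890 and AT3G18860 held 16 each but differed in length, so that they had 7.23 and 2.32 SNPs per kb. The first of these was the highest rate of the 15 genes with the most SNPs. BGAL1, a beta-galactosidase, MFP1, a MAR-binding filament-like protein, PMH1, a putative mitochondrial RNA helicase, AT3G25510 and AT3G26140 held 15 each. EDA5, named for arrest of embryo sac development, AT3G15940 and CES101, also known as RESISTANCE TO FUSARIUM OXYSPORUM 3, held 14 each. MFP1 and CES101 both overlap the 10 kb window of 35 SNPs from 5430001 to 5440000, as does AT3G16010, which holds a clump of 8. The genes are therefore not independent items. In the 10 kb either side of AT3G08890 there were 47 further SNPs, whereas around AT3G10180, despite its 35, there were 16.

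**Figure D5:**
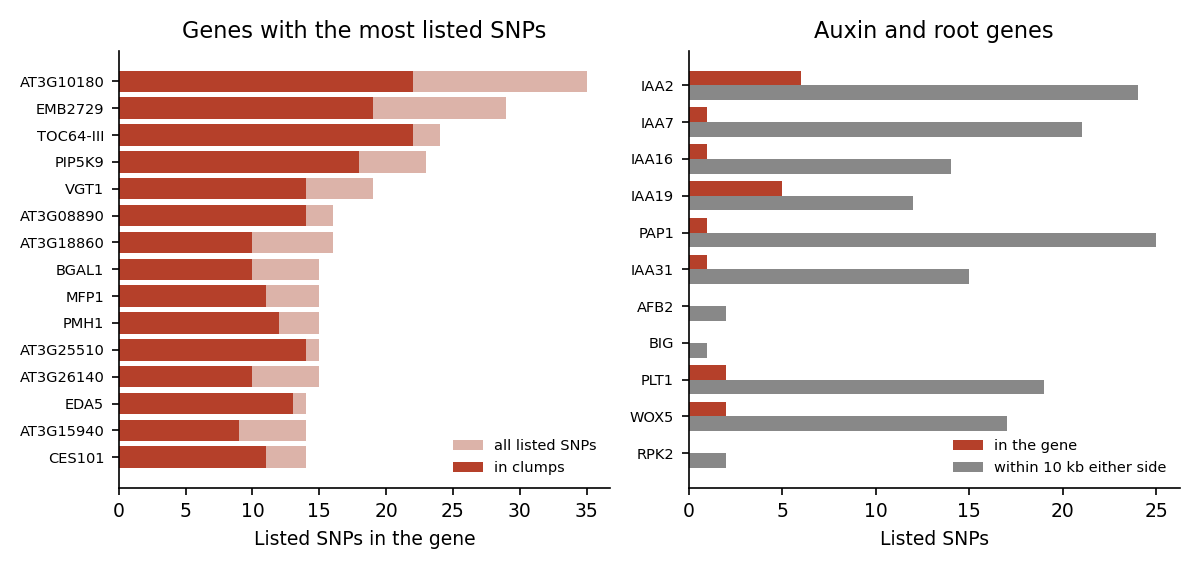
Left: listed SNPs in the 15 protein-coding genes of the region with the most, with the part that stands in clumps (neighbours at most 100 bp apart) in dark red. Right: listed SNPs inside 11 auxin and root genes of the region (red) and within 10 kb either side of them (grey); AFB2, BIG and RPK2 hold 0 and have 2, 1 and 2 around them.

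Auxin acts in root development by way of receptors that mark Aux/IAA repressors for destruction, which frees auxin response factors to act on their targets, and lateral root formation depends on this pathway. Of 5 lists of auxin and root genes, 11 members lay in the region and 8 held a listed SNP, with a median of 1, against 51.6% of the region's protein-coding genes and a median of 1. All 6 Aux/IAA repressors there held at least 1. IAA2 held 6 and IAA19 held 5, while IAA7, IAA16, PAP1 (IAA26) and IAA31 held 1 each. IAA2 and IAA7 are neighbours in the window from 8100001 to 8200000, which held 141 SNPs. IAA19 lay in a window of 35 SNPs, from 5200001 to 5300000, which is below the lower quartile of 41.75. The 10 kb either side of the gene nevertheless held 12 SNPs. No auxin response factor lay in the region.

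The members without a SNP all lay in sparse surroundings. AFB2, an auxin receptor of the F-box kind, held 0 SNPs and was 8.07 kb from the nearest one, in a window of 25 SNPs. BIG, a very large protein needed for auxin transport, is 17.8 kb long and held 0; it lay inside the gap of 36.6 kb from 420600 to 457233, 8.55 kb from the nearest SNP. RPK2, a receptor-like kinase, held 0 in a window of 16 SNPs. Each had only 1 or 2 SNPs in the 10 kb either side, whereas the 8 members with SNPs had between 12 and 25. PLT1, a transcription factor of the root stem cell niche, and WOX5, the quiescent-centre homeobox gene whose promoter drives a reporter in the mutagenized line, held 2 each, in windows of 95 and 123 SNPs.

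Among families found by words in the gene names, receptor like proteins, which are membrane proteins with leucine-rich repeats and include immune receptors, held SNPs in 10 of 13 members with a median of 4, against 51.6% and a median of 1 over the protein-coding genes of the region. These 13 genes are 2.4 to 4.0 kb long, and longer genes of the region more often held a SNP. The share was 58.5% in the length class with a median of 2.83 kb and 68.3% in that with a median of 4.2 kb. The 51.6% is therefore not matched for length. RLP34 held 9, and RLP36 and RLP41 held 7 each, whereas RLP31, RLP33 and RLP35 held 0. Beyond the 3 with the most SNPs, members of this family were named after their values were seen. These members resemble each other in sequence, which can misplace reads, and whether that bears on the counts was not tested. Several are neighbours. RLP39 to RLP42, with 3 to 7 SNPs each, all lay in the window from 9100001 to 9200000 with its 186 SNPs, and RLP37 and RLP38, with 6 and 5, shared a window of 127. Neighbouring members also differed within a window: RLP34 held 9 and RLP35 held 0 in the same window of 102 SNPs. In the rest of the list 20 of 42 receptor like proteins held a SNP, against 26.5% of protein-coding genes there, and the difference was not tested. Protein kinases, by the same search, held SNPs in 7 of 14, close to the 51.6% of all genes of the region, led by MAPKKK7 with 5 and CIPK1 and CPK9 with 4 each. Ribosomal proteins did so in 3 of 9, with ATL5 at 3, RPL18 and RPL3P at 1. Pentatricopeptide proteins did so in 1 of 4, AT3G22470 with 2, and F-box proteins, AFB2 among them, in 0 of 3. The immune genes RPM1, NDR1 and RIN4 held 1 each. The names cover only part of each family, so these counts describe the named members alone, and with 3 to 9 members those of ribosomal, pentatricopeptide and F-box proteins show nothing about these families against the 51.6%.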

How the data were processed

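Genomic DNA of 2 samples of seedlings, 1 per phenotype, was read by HiSeq2000 sequencing, per the labels' protocols. The authors deposited 1 table with a chromosome number and a position in each entry, per the file headers, and it is not tied to a sample. Per the series' design text SNPs were identified with SNPtrack. Per the submitters' processing notes, positions are on build TAIR10. For the aligner, the thresholds, the read depth and the criterion for homozygous sites the entry is: not given in the sources used here. Sites in repeats or with low coverage could be missing without a mark. In the position columns 5 cells held no number and were left out.

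Counts, distances, clumps and gaps were computed with Python 3.11.15, numpy 2.4.6, pandas 2.3.3 and scipy 1.17.1, and the functions were tested on simulated data. Intervals are exact 95% Poisson or binomial ones. Genes came from the RefSeq table of TAIR10.1, which has the nuclear sequence of TAIR10, so no gene coordinates are printed. As a check of placement, 56.1% of the region's SNPs fell in protein-coding genes unshifted, the lowest of 9 placements, and 67.3% after a shift of 3000 bp. All 90 list entries were found by locus identifier.

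Named genes were the 15 with the most SNPs, those in or beside the largest clumps, the longest in the 5 longest gaps, list members, and up to 3 members per family. Other genes of the gaps, the CYP705A array, the genes of the fullest 10 kb windows and further receptor like proteins were named after their values were seen. The members and lists were chosen with earlier results of these data known. No test was run. Values by coding sequence, codon place, base and GC content were planned but need a genome and exons, which were not used here.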

Additional observations from a re-analysis of the deposited data

How the results depend on the processing

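No paired analysis was possible because there is 1 sample per phenotype and the list is tied to neither. Density was 684 SNPs per Mb with the end at 9 Mb, 659 with the end at 11 Mb, 309 with at most 1 SNP per 1 kb and 745 without positions 1 to 600000, the last chosen after seeing the data. The densest window held 2460 per Mb at 50 kb, 1568 at 250 kb and 1254 at 500 kb, and 590 with at most 1 SNP per 1 kb, against 1900 as reported. The median distance was 825.5 bp with at most 1 SNP per 100 bp, a step that removes the shortest distances by construction. SNPs in clumps made up 34.1%, 53.6% and 70.6% with limits of 50, 200 and 500 bp. Without the 15 SNPs of the region that have no other within 10 kb, the longest gap was 159 kb, from 5079992 to 5239186. There were 110 gaps of 10 kb or more and 3 of 50 kb or more. The share of SNPs in protein-coding genes was 58.5% with at most 1 SNP per 1 kb, and 839 genes held at least 2 SNPs. The correlation with gene content was -0.61 in 250 kb windows and -0.73 in 500 kb windows. Trimming 250 bp from each end of genes left 1179 genes with a SNP, against 1493 as reported, which is outside the interval. The correlation with gene content in 100 kb windows was -0.40 with bases of any annotated gene and -0.37 without windows of under 20 SNPs, against -0.41. The trimming and both of these settings were chosen after seeing the data. The remaining alternatives, including windows shifted by 50 kb and 1 SNP per clump, left their values within the interval. Genes by coding sequence alone and reference bases were not run, because no exons or genome were used. Depth, which limits where a SNP could be called, is unknown.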
